A study of Danio rerio with 10 samples.

Results

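Capn9, sult6b1, anxa1a, b3gnt5a, crabp2b and lrwd1 are 6 genes grouped here as non-keratin genes of the enveloping layer of the zebrafish blastula. All probe sets annotated to them were taken, which gave 7 probe sets among the 15502 measured and 6 of 8793 named genes. Lrwd1 has 2 probe sets and each other gene has 1. The genes were picked from the strongest differences between embryos labelled Sb morphant and their controls and from known outer-layer genes, so the values of that contrast are described without a test. The rule that picked them did not use the wild type time course, which is tested, though earlier results of these data were known.

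The enveloping layer is the flat outer epithelium of the blastula. It separates from the deep cells beneath it before gastrulation, seals the embryo with tight junctions, pulls the blastoderm over the yolk together with the yolk syncytial layer, and later forms the periderm of the larval skin. Its differentiation depends on transcription from the embryo's own genome, under regulators that include Grainyhead-like and Krüppel-like factors. Of the 6 genes, capn9 and anxa1a are known for transcripts in this layer or in the periderm that it forms. For sult6b1, b3gnt5a, crabp2b and lrwd1 only the biochemical role is given here. The arrays measured whole embryos, so the layer that holds each transcript was not measured, and fewer cells of a type and less RNA per cell cannot be told apart.

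Expression was measured on 10 single-colour Affymetrix arrays. In experiment 1, 3 arrays held embryos injected at the 1-2 cell stage with a morpholino against sox19b (labelled Sb morphant) and 3 held control embryos, all at 4.3 h post fertilization (hpf). The controls are labelled wildtype, while the series text describes a placebo injection. In experiment 2, 2 arrays held wild type embryos of 2.5 hpf and 2 held those of 4 hpf, which lie on either side of the mid-blastula transition, when zygotic transcription becomes widespread. No strain or parentage is named in the sources used here, and p-values therefore measure only the spread between these samples. The morpholino, an antisense oligonucleotide of 25 bases aimed at an intron-exon junction of sox19b, is shown because it is the only agent that was designed to separate the groups of experiment 1, 5′ to 3′.
sox19b morpholino: acatttgactgtggagaggaaaaaa

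Levels are given on the log2 scale, where 1 unit is a 2-fold difference. The experiments were scaled apart, with array medians of 5.40 to 5.44 in experiment 1 and 6.16 to 6.26 in experiment 2, so deposited levels are compared only within an experiment. The transcript of the targeted gene does not check the labels: the brighter sox19b probe set was higher in the arrays labelled morphant (9.13, 8.80 and 9.18) than in controls (8.48, 7.63 and 8.09), and a morpholino that blocks splicing need not lower it. Replicates correlated at 0.990 to 0.998 within groups, and the lowest correlations were those of control replicate 2. As background, 17 tag control probe sets without a zebrafish target were used, whose highest group mean was 5.1 in arrays labelled morphant, 5.13 in controls, 6.24 at 2.5 hpf and 6.33 at 4 hpf. Probe sets that do not exceed this value are called dim in that group. Where 1 group is dim, the fold is computed against the tag value and given as a lower bound.

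In the control embryos at 4.3 hpf all 6 genes were above the tag background. In the morphant group all 7 probe sets were lower, by 2.72 to 5.56 on the log2 scale. No value of the morphant group reached any value of the controls, a separation that 27.3% of all probe sets showed in the same direction. These are the values that chose the genes, and b3gnt5a and the dimmer lrwd1 probe set rank 1 and 2 among all falls in size, anxa1a 13, capn9 28, sult6b1 99 and crabp2b 178. Nothing is read from that order beyond the way the genes were picked.

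Capn9 encodes a calpain, a calcium-dependent cysteine protease. It read 7.95, 8.87 and 8.22 in controls and 4.38, 4.54 and 4.29 in arrays labelled morphant. The controls were spread by 0.93 around a mean of 8.35 ± 0.47 (SD, n = 3), with replicate 2 the highest, and the morphant arrays lay close together and dim at 4.41 ± 0.13 (SD, n = 3). The difference was at least 9.49-fold.

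Anxa1a encodes an annexin, a protein that binds membrane phospholipids in the presence of calcium. It read 9.25, 10.13 and 9.68 in controls and 4.87, 5.77 and 5.02 in arrays labelled morphant. Control replicate 2 was again the highest of its group, and morphant replicate 2 stood above the other two, so that the mean of 5.22 ± 0.48 (SD, n = 3) lies just over the tag background while 2 of the 3 arrays lie under it. Without morphant replicate 2 the group mean was 4.94, and the difference was -4.74 instead of -4.47.

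Sult6b1 encodes a cytosolic sulfotransferase, an enzyme class that transfers sulfate to small molecules. It read 9.53, 9.47 and 9.40 in controls and 6.25, 6.38 and 6.10 in arrays labelled morphant. Its controls were the tightest of the 7 probe sets, at 9.47 ± 0.066 (SD, n = 3). Sult6b1 was the one gene that stayed clearly above background in the morphant arrays, 1.14 over the highest tag mean at 6.24 ± 0.14 (SD, n = 3), so its difference of 9.34-fold is a measured ratio and not a bound.

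B3gnt5a encodes a glycosyltransferase that adds N-acetylglucosamine to lactosylceramide and so starts the lacto-series glycosphingolipids of the cell surface. It read 7.44, 8.15 and 7.83 in controls and 2.32, 2.07 and 2.34 in arrays labelled morphant. The morphant mean lies below the means of all 17 tag probe sets. The log2 difference of -5.56 therefore spans a range in which no transcript was measured, and the supported bound is at least 6.51-fold.

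Crabp2b encodes a cellular retinoic acid-binding protein, which carries retinoic acid to its nuclear receptors. It read 5.48, 5.69 and 5.73 in controls and 2.75, 3.05 and 2.94 in arrays labelled morphant. The control mean of 5.64 ± 0.13 (SD, n = 3) was only 0.51 above the highest tag mean, so the bound is at least 1.45-fold although the groups were separated by 2.43.

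Lrwd1 encodes a leucine-rich repeat and WD repeat protein, known in human cells to associate with the origin recognition complex and with heterochromatin. Its brighter probe set read 9.29, 9.61 and 9.50 in controls and 4.89, 4.86 and 5.21 in arrays labelled morphant, at least 20.6-fold lower. Its dimmer probe set read 8.55, 8.94 and 8.70 in controls and 3.58, 3.12 and 3.63 in arrays labelled morphant, at least 12.4-fold lower. The 2 probe sets thus ran in the same direction with the same order of control arrays, and both were dim in the morphant arrays.

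**Figure D1:**
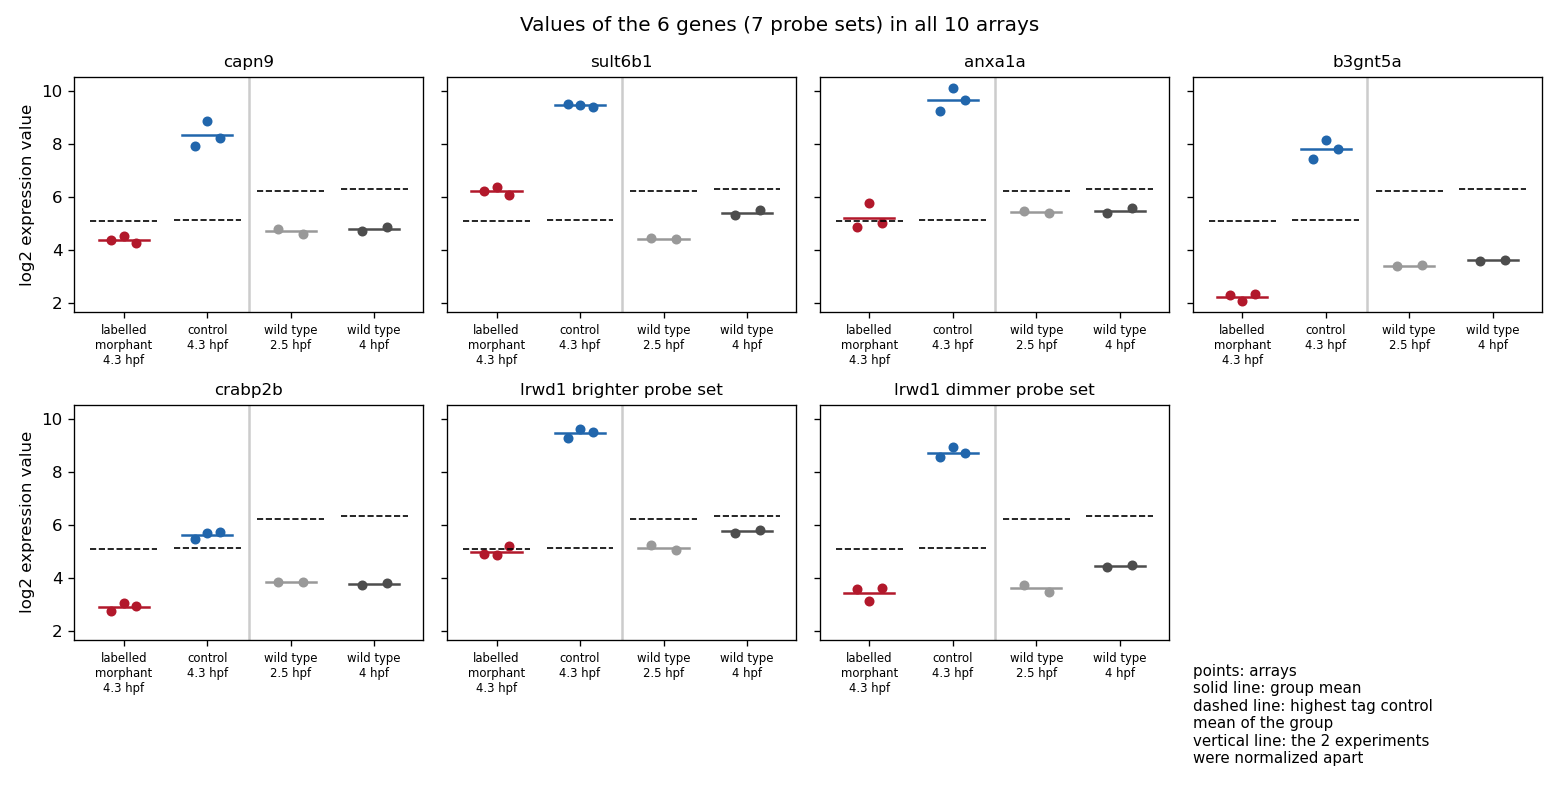
Log2 expression value (y axis) of the 7 probe sets in each of the 10 arrays, by group; points are arrays, solid lines group means and dashed lines the highest tag control mean of the group. The controls at 4.3 hpf lie above the dashed line in every panel, and both wild type groups of experiment 2, scaled apart from experiment 1, lie below it.

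Control replicate 2, the array that correlated least with its group, was the highest control for 5 of the 7 probe sets, with a median deviation of 0.21 from the group mean against 0.0025 over all probe sets. These values chose the genes, so their range over settings is a description. Over each scaling and with each array left out the log2 difference ran from -4.14 to -3.63 for capn9, from -3.29 to -2.98 for sult6b1 and from -2.80 to -2.48 for crabp2b.

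The time course of experiment 2 gave values that the rule for picking the genes did not use. All 6 genes were dim at 2.5 hpf and dim at 4 hpf, where 37.1% of all named genes were dim at both times. Among 206 other genes at least 4-fold lower in arrays labelled morphant, 149 (72.3%) were likewise dim at both times, so this trait was not particular to the 6. Being above background in the 4.3 hpf controls and dim at both earlier times was found in 563 genes (6.40%), and 225 (2.56%) were also dim in the morphant arrays, as capn9, b3gnt5a, crabp2b and lrwd1 were. The background was 5.13 in these controls, 6.24 at 2.5 hpf and 6.33 at 4 hpf, on separate scales. The pattern therefore does not show that the level rose after 4 hpf.

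Within that low range, sult6b1 and lrwd1 rose from 2.5 to 4 hpf. Sult6b1 read 4.46 and 4.41, then 5.33 and 5.51, a rise of 0.98 (SE 0.095, limma adjusted p = 2.46e-05), with the groups apart by 0.87; 37.7% of all probe sets had both 4 hpf values above both 2.5 hpf values. The brighter lrwd1 probe set read 5.23 and 5.05, then 5.71 and 5.82, a rise of 0.63 (SE 0.098, limma adjusted p = 0.00103). The dimmer lrwd1 probe set read 3.75 and 3.46, then 4.43 and 4.48, a rise of 0.85 (SE 0.11, limma adjusted p = 1.90e-04). The 3 calls among 7 probe sets stand beside 9.66% of all probe sets that rose. By gene they are 2 of 6, and of the 206 other genes at least 4-fold lower in arrays labelled morphant 69 (33.5%) rose as well, 35 of them while dim at both times. No fold change is given for sult6b1 and lrwd1, because both times lie at or under the tag background. Sult6b1 passed 4 of the 17 tag probe sets at 2.5 hpf and 10 at 4 hpf, and the brighter lrwd1 probe set 10 and 12.

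The other 4 genes were not called. Capn9 gave 4.80 and 4.62 before the transition and 4.74 and 4.86 after it, with overlapping groups and a difference of 0.090 (95% interval -0.12 to 0.30, limma adjusted p = 0.543). Anxa1a read 5.48 and 5.39, then 5.39 and 5.60, a difference of 0.063 (95% interval -0.15 to 0.28, limma adjusted p = 0.684). Crabp2b read 3.83 and 3.86, then 3.74 and 3.82, a difference of -0.065 (95% interval -0.26 to 0.13, limma adjusted p = 0.632).

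B3gnt5a read 3.39 and 3.43, then 3.59 and 3.64, a difference of 0.21 (95% interval 0.017 to 0.40, limma adjusted p = 0.116). Its groups did not overlap, but the difference did not pass adjustment over all probe sets, and every value lay below all 17 tag probe sets. At these levels a small change in transcript cannot be measured, so the intervals bound the difference of the array value and not that of the transcript. None of the 7 calls or missed calls of this comparison changed under another scaling, another variance model, the replicate block or with an array left out.

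**Figure D2:**
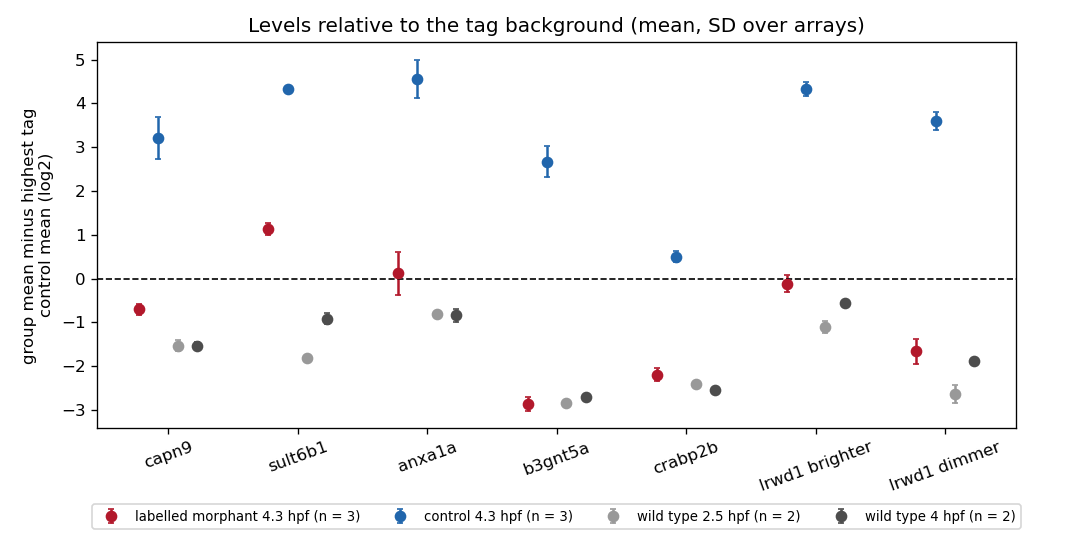
Group mean of each probe set minus the highest tag control mean of the same group (y axis, log2); bars are the SD over 3 arrays per group at 4.3 hpf and 2 at 2.5 and 4 hpf, and the dashed line is the tag background. Control means lie 0.51 to 4.56 above the line, and at 2.5 and 4 hpf all 7 probe sets lie below it, sult6b1 rising from -1.80 to -0.91.

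When all 10 arrays were put on a common scale by joint quantile normalization, each gene was highest in the 4.3 hpf controls. Sult6b1 then read 9.48 ± 0.058 (SD, n = 3) in controls, 6.45 ± 0.15 (SD, n = 3) in arrays labelled morphant, 4.74 ± 0.14 (SD, n = 2) at 4 hpf and 3.78 ± 0.010 (SD, n = 2) at 2.5 hpf. B3gnt5a read 8.01 in controls and 2.79, 2.78 and 2.64 in the other groups in the same order, with SDs of 0.16 and 0.028 in the morphant and 4 hpf groups. The highest tag means of these groups were 5.47, 5.83 and 5.81 on this scale. The b3gnt5a values lie under them, so their closeness does not measure equal transcript levels. Anxa1a read 9.68 in controls, 5.57 ± 0.41 (SD, n = 3) in arrays labelled morphant, 4.82 ± 0.16 (SD, n = 2) at 4 hpf and 4.89 ± 0.011 (SD, n = 2) at 2.5 hpf. At 4 and 2.5 hpf sult6b1 and anxa1a also lay under the highest tag mean. The age of the embryos and the experiment cannot be told apart in this ordering, and no test was made of it.

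The 6 genes were set beside lists of outer-layer genes, counted by the brightest probe set of each gene. Of 14 measured regulators of the layer, 10 fell in arrays labelled morphant and 0 rose (limma, adjusted p below 0.05), where 21.5% of all named genes fell. Their median difference was -1.18, against -0.02 over all genes. The AP-2 factor gene tfap2c (-3.74, at least 2.28-fold), the Grainyhead-like gene grhl1 (-2.63, at least 2.88-fold) and the Krüppel-like gene klf17 (-2.41) fell most. Tfap2c has 2 probe sets, and only the brighter was called as a fall. With the dimmest probe set of each gene, 9 of the 14 fell. When only probe sets above the tag background were tested 9 fell and 1 rose. Under Bacillus control scaling 8 fell and 1 rose. In experiment 2, 6 of the 14 regulators were dim at both times, where 37.1% of all named genes and all of the 6 genes were. Of the 14, 6 rose, where 8.86% of all named genes rose. Klf17 rose at least 6.63-fold and klf2a at least 1.58-fold from a dim start. The difference between these counts and those of the 6 genes was not tested.

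Keratins are the intermediate filament proteins of the layer. Of 10 measured, 8 fell in arrays labelled morphant and 0 rose (median -2.37), where 21.5% of all named genes fell and 26% rose. Among the 8, krt91 (-0.62) and krt15 (-0.47) were dim in both groups. The falls were 6 when only probe sets above the tag background were tested, under Bacillus control scaling and without labelled morphant replicate 1. Krt5 (-5.18, at least 20.9-fold), krt97 (-4.89, at least 24.8-fold) and krt4 (-3.85) fell most. All 10 were dim at both times of experiment 2, where krt18a.1 (0.62) and krt4 (0.43) rose within that range and none of the others was called. Over all named genes 37.1% were dim at both times and 8.86% rose.

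Of 29 measured junction and surface genes of outer epithelia, 14 fell and 3 rose in arrays labelled morphant (median -0.33). Over all named genes 21.5% fell and 26% rose. The falls include anxa1b and anxa1c, which are counted again among the annexins. Cldne, evpla, anxa1b and s100a10b fell while dim in both groups, and 10 fell when only probe sets above the tag background were tested. Lye, a surface antigen of the layer, fell from 11.28 ± 0.064 (SD, n = 3) to 8.05 (-3.23), and the claudin gene cldnf (-2.78, at least 1.03-fold) and the plakophilin gene pkp3a (-2.61, at least 1.43-fold) followed. Of other genes in this list, the E-cadherin gene cdh1 read 8.01 in controls and 7.68 in arrays labelled morphant (limma adjusted p = 0.0791). Jupa (-1.26, limma adjusted p = 5.22e-05) and cgnl1 (-0.96, limma adjusted p = 2.21e-04) fell. The 3 rises were those of cldnd (0.82), agr2 (0.80, dim in both groups) and epcam (0.35, limma adjusted p = 0.0333). Epcam has 2 probe sets, and only the brighter was called as a rise. The number of rises ran from 2 to 5 over the settings tried, with 5 under Bacillus control scaling. In experiment 2, 4 rose and 0 fell, where 8.86% of all named genes rose and 11.8% fell. Among the 4 were lye (0.64, dim at both times) and cdh1 (0.42).

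**Figure D3:**
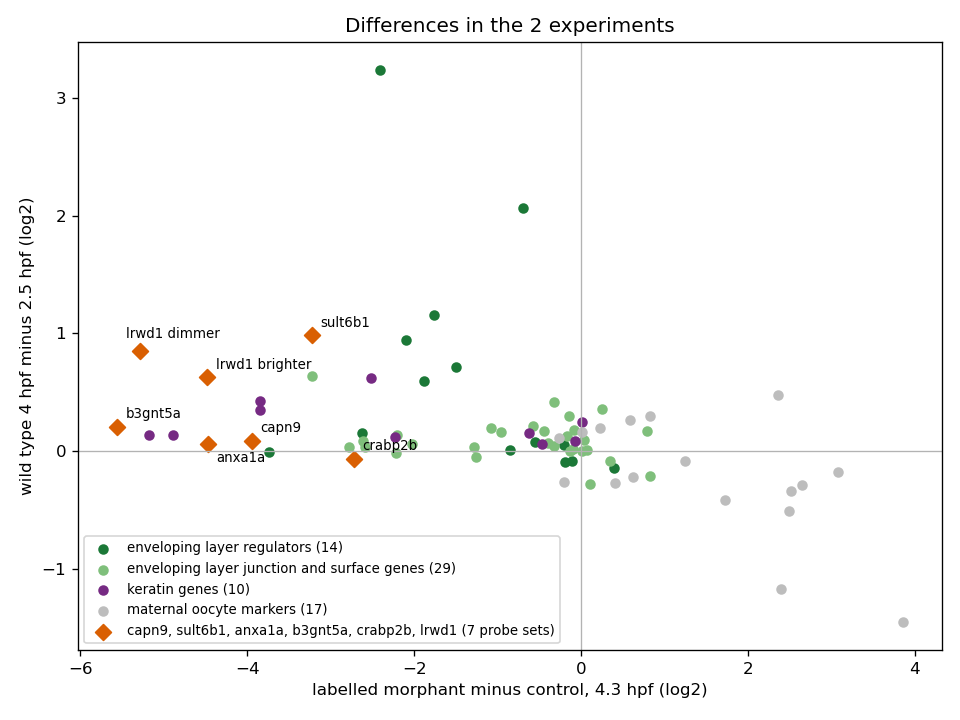
Difference between arrays labelled morphant and controls at 4.3 hpf (x axis, log2) against the difference between wild type embryos at 4 and 2.5 hpf (y axis, log2), which share no array. Diamonds are the 7 probe sets of the 6 genes, between -5.56 and -2.72 on the x axis and between -0.07 and 0.98 on the y axis; circles are genes of 4 lists, with klf17 highest at 3.24.

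Relatives of each member were counted to see whether the low values extended to its family. Of 13 other annexin genes, 3 fell and 1 rose in arrays labelled morphant, where 21.5% of all named genes fell and 26% rose. The falls became 5 without control replicate 1 or under eBayes with trend and robust settings, and 1 when only probe sets above the tag background were tested. Of the other annexin A1 genes, anxa1b fell by 2.20 on the log2 scale (dim in both groups) and anxa1c fell (-1.28, at least 1.34-fold), whereas anxa1d was not called (-0.33, adjusted p = 0.0596, dim in both groups). Anxa2b fell (-1.11) while dim in both groups. Anxa5b, at 8.97 in controls and 8.87 in arrays labelled morphant, was not called (adjusted p = 0.500). In experiment 2, 2 annexins rose and 1 fell, with anxa13l at -0.45 and anxa4 at 0.42, both dim. Over all named genes 8.86% rose and 11.8% fell there.

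Of 7 other calpain genes and partners, 1 fell and 1 rose, where 21.5% of all named genes fell and 26% rose. These were capn8 (-0.69, dim in both groups) and capn10 (0.53), and the small subunit gene capns1a read 8.77 and 8.88 (adjusted p = 0.479). The fall was lost on Bacillus control scaling, without labelled morphant replicate 1 and when only probe sets above the tag background were tested, and the falls were 2 under joint quantile normalization and without control replicate 2. In experiment 2, 3 rose and 0 fell, with capn1 (0.41) and capn10 (0.33) the largest, where 8.86% of all named genes rose. Of 9 sulfotransferase and sulfate donor genes other than sult6b1, 7 were dim in both groups of experiment 1. Over all named genes 64.3% were above the tag background in the 4.3 hpf controls. That share is for the controls alone, and the share dim in both groups is not given here. Of the 9, 1 fell (papss2b, which makes the sulfate donor, -1.77, dim) and 0 rose. In experiment 2 only sult1st3 was called (0.30, dim), where 20.7% of all named genes were called. It was not called under median centring or joint quantile normalization.

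Among 7 other glycosphingolipid and lactosamine synthesis genes, 5 were dim in both groups, all 5 of them b3gnt genes. Over all named genes 64.3% were above the tag background in the 4.3 hpf controls, a share for the controls alone. Of the 7, 0 fell, where 21.5% of all named genes fell. With the replicate number as a block 2 fell, as they did under eBayes with trend and robust settings and with the mean of a gene's probe sets, and 1 fell under median centring, without control replicate 1 and without labelled morphant replicate 3. Of the 7, 1 rose, where 26% of all named genes rose. It was the ganglioside synthase gene st3gal5, by 1.16 in arrays labelled morphant (limma adjusted p = 2.00e-04). In experiment 2 limma called 0 of them, against 20.7% of all named genes, and 1 was under an unadjusted p of 0.05; eBayes with trend and robust settings also called 0.

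Of 20 other retinoid genes, 2 fell and 3 rose, where 21.5% of all named genes fell and 26% rose. The falls ran from 1 to 4 over the settings tried, with 4 under joint quantile normalization, and the rises were 5 under Bacillus control scaling. The retinoic acid synthesis gene aldh1a2 (-1.07, dim in both groups) and the degrading enzyme gene cyp26a1 (-0.90) fell, and the vitamin A transporter gene stra6 (0.96), the receptor gene rarga (0.95) and fabp3 (0.66) rose. Crabp2a, the paralogue of crabp2b, was dim in both groups at 2.43 and 2.40 (adjusted p = 0.906). In experiment 2, 2 rose and 1 fell, with rdh10b at -0.57 and cyp26a1 at 0.54. There 8.86% of all named genes rose and 11.8% fell.

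Genes of the origin recognition complex, with which Lrwd1 associates in human cells, and of replication licensing moved in both directions. Of 17 origin recognition and licensing genes, 6 rose and 4 fell in arrays labelled morphant, where 26% of all named genes rose and 21.5% fell. The rises held orc1 (0.89), orc3 (0.99), orc5 (0.48) and orc6 (0.55), singled out after their values were seen. Orc2 and orc4 were not called (adjusted p = 0.535 and 0.391). The falls were those of the helicase genes mcm3 (-2.76), mcm6 (-1.88, at least 2.23-fold) and mcm7 (-0.96) and of cdt1 (-0.32), and cdc45 was the largest rise (1.34). Scaled on the Bacillus control probe sets, 11 of the 17 rose. In experiment 2, where lrwd1 rose, cdc45 (-0.93) fell and mcm3 (0.67, dim) rose, with 2 rises and 3 falls in all. Over all named genes 8.86% rose and 11.8% fell. Of the orc genes there, orc5 fell (-0.34, adjusted p = 0.0487) and orc1, orc2, orc3, orc4 and orc6 were not called.

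Markers of other parts of the embryo moved with the 6 genes, and their part in the result was not tested. Of 17 deep cell mesendoderm genes, all 17 fell (median -2.36), where 21.5% of all named genes fell and 26% rose. This list also holds the ventral homeobox repressor genes vox, vent and ved. Tbx16 (-4.55), ved (-3.62) and cxcr4a (-3.35) fell most. The mean over the list was 8.35 to 8.79 per control array and 6.32 to 6.53 per array labelled morphant. In experiment 2, 10 of the 17 rose and 0 fell, where 8.86% of all named genes rose. Of the 17, 12 were dim at both times, where 37.1% of all named genes were. Tbxta, noto, mixl1, lft1 and ndr1 rose while dim at both times. Vox rose at least 4.01-fold and cxcr4a at least 2.25-fold. Of 14 genes of the yolk syncytial layer, 9 fell and 0 rose in arrays labelled morphant, beside the same shares of all named genes. Afp4 (-4.43), hnf4a (-3.34, at least 6.74-fold) and gata5 (-3.05, at least 7.80-fold) fell most. List means were 5.69 to 6.20 per control array and 4.33 to 4.56 per array labelled morphant. In experiment 2, 2 of the 14 yolk syncytial layer genes rose, mxtx2 at least 3.53-fold and ctsla by 0.34, where 8.86% of all named genes rose. Of these 14, 12 were dim at both times, beside the same 37.1% of all named genes.

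Of 17 maternal oocyte genes, 13 rose and 0 fell in arrays labelled morphant (median 1.25), where 26% of all named genes rose and 21.5% fell. Mos (3.85), btg4 (3.08) and buc (2.65) rose most, with list means of 10.12 to 10.17 per morphant array against 8.46 to 8.88 per control. In experiment 2, 6 of the 17 fell and 1 rose, where 11.8% of all named genes fell and 8.86% rose. Mos (-1.45) and dazl (-1.17) fell most. Of 15 genes of late differentiated tissues, 11 were dim in both groups of experiment 1. Over all named genes 64.3% were above the tag background in the 4.3 hpf controls, a share for the controls alone. Of the 15, 1 fell (lcp1, -5.24, at least 10.5-fold) and 1 rose (sncb, 0.44, at least 1.03-fold). Lcp1 read 8.50 in controls, above the tag background. Ins of the same list also lay above it there, at 5.69. A value above that background does not by itself show that the transcript was present. In experiment 2, ins rose (0.36) and 0 fell.

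**Figure D4:**
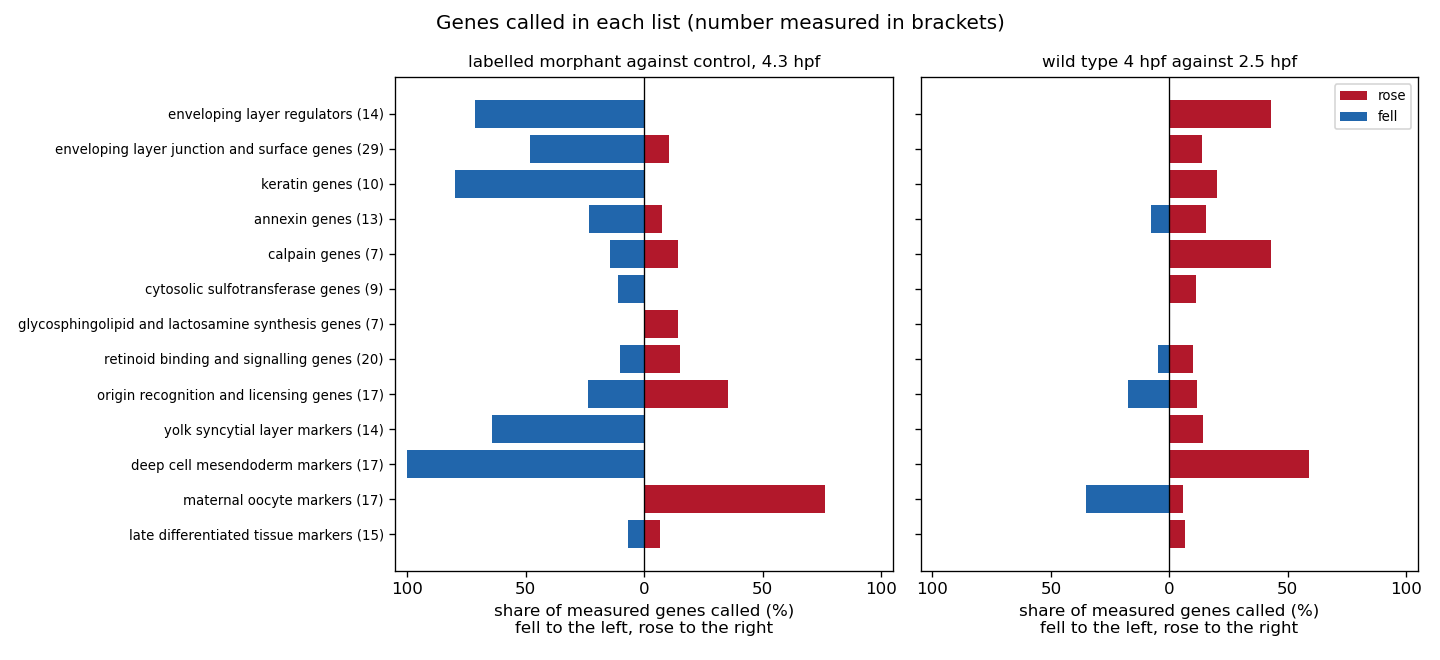
Share of the measured genes of each of 13 lists that rose (right) or fell (left) at an adjusted p below 0.05 (x axis, percent), in experiment 1 (left panel) and experiment 2 (right panel); the 6 genes are in no list. Keratins (8 of 10) and outer-layer regulators (10 of 14) fell in most members, as did deep cell mesendoderm (17 of 17) and yolk syncytial layer genes (9 of 14). In the 6 family lists, of 7 to 20 measured genes each, 0 to 4 genes fell. Over all named genes 21.5% fell in experiment 1.

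The counts over all probe sets depend on scaling. In experiment 1, 3307 probe sets rose and 3284 fell, and scaled on the Bacillus control probe sets 5631 rose and 1987 fell, with the median of all probe sets moving from -0.04 to 0.21. In experiment 2, 1498 rose and 1532 fell, and under median centring 754 rose and 2302 fell. Without the second 2.5 hpf array, 599 rose and 827 fell. The 3 calls of sult6b1 and lrwd1 kept under each of these settings, with adjusted p of at most 0.00990.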

How the data were processed

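The deposited table gives log2 values, 1 per probe set and array, that come from RMA (background correction, normalization between arrays, probe set summary) in the affy package, per the submitters' processing notes, which name no version. The values were used as deposited. Of 15617 probe sets, 115 control probe sets were left out. GEO's array annotation gave 1 gene for 10795 of the rest and several for 135; 10711 were matched by Entrez identifier to RefSeq (assembly GRCz12tu, names only), and 1 symbol was replaced.

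Each experiment was fitted apart with limma 3.58.1 (lmFit, eBayes, two-sided, group as the only term) in R 4.3.3, with Benjamini-Hochberg adjustment over 15502 probe sets and a threshold of 0.05. Figures used matplotlib 3.10.9 in Python 3.11.15. The fit was tested on simulated data. Arrays give no counts, so their number limits the precision.

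Same-numbered arrays of experiment 1 deviated together from their group means (correlations 0.318, 0.202 and 0.114, all over 0.1), those of experiment 2 did not (-0.024); a fit with the replicate number as a block is an alternative.

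The 6 genes and the 13 lists (281 entries, 189 measured, 2 genes in more than 1 list) were chosen with earlier results of these data known. Values of list genes are those of the brightest probe set. Mcm3, tbx16, hnf4a, rarga, epcam, anxa1d, anxa4, krt91 and sncb have 2 probe sets and anxa5b has 4, and the others are not shown. Of each list, the 3 called genes with the largest difference in experiment 1 and the 2 largest in experiment 2 are named. Further relatives of the 6 genes, anxa5b, capns1a, crabp2a and the rest of the origin recognition complex were named after their values were seen. So were cdh1, epcam, jupa, cgnl1, cldnd, agr2, krt91, krt15, cldne, evpla, s100a10b, tbxta, noto, mixl1, lft1 and ndr1. Protein and promoter sequences were not used here, so the planned search for promoter motifs was not made.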

Additional observations from a re-analysis of the deposited data

How the results depend on the processing

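The falls of the 6 genes in arrays labelled morphant had no test. Of 86 recomputed differences 77 moved by less than the SD between replicates, and none changed direction, though these values chose the genes. The 77 include settings that cannot move a difference: another variance model, the replicate block and the limit to probe sets above the tag background. In experiment 2 the 3 called probe sets remained the called ones throughout; those not called stayed so, though the small differences of capn9 and anxa1a changed sign under some settings (lowest -0.032 and -0.065). When only probe sets above the tag background were tested, none of the 7 was left in experiment 2. Scaled on 27 Bacillus control probe sets, 5631 probe sets rose and 1987 fell in experiment 1; median centring gave 754 and 2302 in experiment 2; the cause was not tested. With 1 array left out, 599 to 1455 rose and 827 to 1358 fell in experiment 2 (fewest without the second 2.5 hpf array, cause not tested); in experiment 1 it was 2943 to 3202 and 2733 to 3154. With the replicate block, 6920 probe sets were called in experiment 1 instead of 6591 and 3241 instead of 3030 in experiment 2; the block changed no call of the 6 genes in experiment 2. With the median instead of the highest tag mean as background, 2 instead of 5 of the 7 probe sets were dim in arrays labelled morphant, 4 instead of 7 at 4 hpf. Of 676 recounts of the lists, 564 stayed within 1.5 times. Signal near background limits every statement on experiment 2.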

Other observations

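The genes whose values ran most like each member were sought over the 10 arrays, after each experiment's mean was removed, among 7382 probe sets above the tag background in at least 1 group. The correlations of 0.997 to 0.999 are descriptions over 10 arrays in which the gap between arrays labelled morphant and controls weighs most. Nearest to sult6b1 were the finTRIM gene ftr82, the bZIP factor gene cebpb and the cyclin gene ccnd1. They were higher at 4 than at 2.5 hpf by 0.59 to 1.12 on the log2 scale. The search also used the arrays of experiment 2, so these rises are part of what chose the genes. Nearest to crabp2b were the lipoxygenase gene alox5b.3, keratin krt5 and the cyclooxygenase gene ptgs2a. Nearest to b3gnt5a were zbedx, the epithelial splicing regulator gene esrp1 and the ribosome-associated gene rack1.

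Nearest to anxa1a were si:ch211-137a8.4, the cathepsin gene ctsll and the ribosomal protein gene rpl35, and nearest to capn9 were the exosome gene exosc5, the tubulin gene tuba5 and rasgef1bb. Nearest to lrwd1 were the ribosomal protein gene rps23, sona and the splicing regulator gene ptbp1a. Several of these differ from the members in level before the transition: at 2.5 hpf rpl35 read 10.33 and rack1 11.11, far above the tag background, where anxa1a and b3gnt5a were dim.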
